A study of Bos taurus with 86 samples.

Results

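Transcripts of cytosolic ribosomal proteins were examined in single bovine embryos. The genes were chosen by name. Every array row whose single gene symbol in the platform annotation starts with RPL or RPS was taken, or is RPSA, leaving out the RPS6K kinases and the mitochondrial MRPL and MRPS genes. This gave 48 genes in 116 rows from 58 cDNA clones, against 3433 named genes and 6278 features that could be tested in all. Of the 48 genes, 46 were measured well enough to be tested. RPL5 and RPS12, with 2 rows each, had no value on both arrays of any embryo and are named only. The tested genes comprised 28 of the large subunit, 16 of the small subunit and 2 that the name rule takes in although they are not core subunits. These are RPL7L1, a paralogue of RPL7, and RPS19BP1, a nucleolar protein that binds RPS19.

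The arrays carried 2 colours, and each embryo was hybridised against a common reference RNA on 2 arrays with the dyes exchanged. There were 14 embryos labelled AI, 14 labelled IVD and 15 labelled IVF, all from cattle (Bos taurus). AI was taken to mean artificial insemination, and IVF fertilization in vitro. IVD, which the labels leave unexplained, is a group name only here, and the sources used here give no breed, stage or treatment. All 3 groups share the protocol of 3 rounds of linear RNA amplification for the embryo and 2 rounds for the reference. By the series title, the study asked what maturation, fertilization and culture in vitro do to the expression profile of single embryos.

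Ribosomes carry out all cytosolic protein synthesis. Each is built from a small subunit, which reads the mRNA, and a large subunit, which joins amino acids and holds the exit tunnel for the new protein. Most of their proteins are needed in equal numbers. The mRNAs of these proteins mostly share a terminal oligopyrimidine (TOP) start that couples their translation to growth signals through mTOR. In mammalian embryos the ribosome store of the oocyte is replaced after the embryonic genome becomes active, and new ribosomes accompany the growth of the blastocyst.

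All values are log2 ratios of embryo over reference after centring each array on its median, and differences are between group means. Which dye is the numerator is not stated, and the direction embryo over reference is likely, not settled. It was taken from marker lists. Of 16 measured trophectoderm genes 14 lay above 0 with a median of 2.22, while 0 of 3 blood and immune cell genes and 0 of 3 cumulus and granulosa cell genes did (medians of -1.14 and -0.31). The measured inner cell mass and hypoblast genes were only 4 of 18 listed, 2 of them above 0, and the oviduct and endometrium list had 1 measured gene. All signs below would turn if the direction were the opposite. An embryo was measured as a whole, so fewer cells of a type and less RNA per cell cannot be told apart. For the marker counts that follow, the background over all features was 17.7% lower and 19.9% higher in IVF minus AI. It was 21% and 25.5% in IVD minus AI, and 25.2% and 22.3% in IVF minus IVD. Across the marker lists, 4 of 16 trophectoderm genes were lower and 2 higher in IVF than in AI. In IVD 5 were lower and 5 higher than in AI. Of the cumulus and granulosa cell genes 2 of 3 were higher in IVF than in AI and 0 of 3 changed in IVD, and of the inner cell mass and hypoblast genes 2 of 4 were lower in IVF, and 1 was lower and 1 higher in IVD. SPP1, the measured oviduct and endometrium gene, differed by -0.83 in IVD minus AI and 0.99 in IVF minus IVD, both past the threshold, and by 0.16 in IVF minus AI (adjusted p = 0.571). Of the blood and immune cell genes 1 of 3 was lower in IVD than in AI, 1 was higher in IVF than in IVD, and 0 changed between IVF and AI. In IVF minus IVD, 6 of 16 trophectoderm genes were lower and 3 higher, 2 of 4 inner cell mass and hypoblast genes were lower and 1 higher, and 2 of 3 cumulus and granulosa cell genes were higher. Their part in the results below was not tested.

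The IVD arrays stood apart technically. An IVD embryo's arrays lacked a value in 1001.5 to 1871.5 rows on average, those of AI in 3613 to 5713 and those of IVF in 3076.5 to 5099.5. The correlation between an embryo's dye-swapped arrays before the sign was turned lay between -0.767 and -0.589 for IVD, between -0.912 and -0.816 for AI and between -0.911 and -0.717 for IVF. For IVD, these array properties and the group cannot be told apart. Clustered by dye bias, the embryos fell into a cluster of 13 AI, 14 IVD and 2 IVF, a cluster of 1 AI and 11 IVF, and a cluster of 2 IVF embryos. The labels do not say which embryos came from separate parents, so p-values measure the spread between these embryos.

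Against the reference, ribosomal protein genes lay mostly below 0 in all groups. In AI 12 of 46 group means were above 0, in IVD 5 and in IVF 2, with medians over the genes of -0.44, -0.69 and -0.83. Over all 6278 features the medians were -0.066, -0.07 and -0.061. The mean was highest in AI for 32 of the 46 genes, in IVD for 12 and in IVF for 2. It was lowest in IVF for 27 genes, in IVD for 18 and in AI for 1, RPS9.

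IVF embryos were set against AI embryos. Ribosomal protein transcripts were mostly lower in IVF, led by RPL35A of the large subunit, RPL30, RPL22, RPL37, RPL23 and the stalk protein RPLP1, and by RPS3A and RPS3 of the small subunit. Of the 46 genes 27 fell and 1, RPS9, rose. That is 58.7% lower and 2.17% higher, where the background over all features was 17.7% lower and 19.9% higher (37.7% in either direction). The median difference was -0.35, from -1.30 to 0.59, against 0.041 over all features. Two-sided limma with Benjamini-Hochberg adjustment over all features was used throughout, with 0.05 as threshold.

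RPL35A, a large subunit protein mutated in some patients with Diamond-Blackfan anaemia, ran from -0.23 to 0.84 in AI with a median of 0.038. In IVF it ran from -1.95 to -0.51 with a median of -1.07. All 15 IVF embryos fell short of the whole AI range. The difference was -1.30 ± 0.13 (SE), or 2.47-fold lower in IVF (adjusted p = 5.64e-10). IVD embryos took an intermediate place, from -1.34 to -0.10 with a median of -0.84, and overlapped both other groups.

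RPL23, a large subunit protein that can also bind the p53 regulator MDM2, was the other gene without overlap. It ran from 0.25 to 0.98 in AI (median 0.54) and from -0.86 to 0.20 in IVF (median -0.25), a difference of -0.85 ± 0.10 (adjusted p = 3.67e-08). In IVD it ran from 0.081 to 0.84 (median 0.51), close to AI. The 2 genes without overlap among 46 stand beside a background of 0.382% of all features that were lower in IVF without overlap.

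RPL30, a large subunit protein that binds RNA motifs outside the ribosome as well, ran from -1.07 to 0.10 in AI (median -0.63) and from -2.50 to -0.71 in IVF (median -1.44). Of 15 IVF embryos 13 lay below every AI embryo, and the difference was -0.96 ± 0.15 (adjusted p = 1.95e-06). RPL22, an RNA-binding protein of the large subunit, spread more widely, from -0.80 to 0.50 in AI (median -0.063) and from -2.39 to 0.091 in IVF (median -1.04). It fell by 0.94 ± 0.19 on the log2 scale (adjusted p = 1.30e-04), with 10 of 15 IVF embryos below the AI range. RPL37, a small zinc-binding protein, ran from -1.5 to -0.41 in AI (median -0.90) and from -2.55 to -1.17 in IVF (median -1.78), a difference of -0.88 ± 0.13 (adjusted p = 1.95e-06).

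The stalk of the large subunit recruits the elongation factors and contains RPLP1 and RPLP2. RPLP1 ran from 0.0020 to 0.65 in AI (median 0.36) and from -0.89 to 0.23 in IVF (median -0.43). It fell by 0.78 ± 0.10 on the log2 scale (adjusted p = 3.67e-08), with 14 of 15 IVF embryos below the AI range. RPLP2 fell less, by 0.39 ± 0.13 (adjusted p = 0.0167), with 4 of 15 IVF embryos below the AI range.

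On the small subunit, RPS3 sits at the mRNA entry site. It ran from 0.78 to 1.60 in AI (median 1.20) and from -0.25 to 0.88 in IVF (median 0.39), which is -0.87 ± 0.12 (adjusted p = 2.11e-07), with 14 of 15 IVF embryos below the AI range. RPS3A, which contacts the initiation factor eIF3, was measured in 12 AI and 14 IVF embryos. It ran from -0.58 to 0.65 in AI (median 0.019) and from -1.71 to -0.25 in IVF (median -0.80), a difference of -0.88 ± 0.16 (adjusted p = 2.77e-05). Only 10 of the 14 IVF embryos lay below the AI range.

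Among the other lower genes were RPL15, RPS15A, RPL10, RPL14, RPS25 and RPL6, with differences from -0.78 to -0.52, and the calls reached down to RPS20 at -0.27 ± 0.10 (adjusted p = 0.0299). RPL31, RPL32 and RPL38 lay just outside the threshold with adjusted p-values of 0.0527, 0.0566 and 0.0572 and differences of -0.18, -0.30 and -0.31. RPS9, a protein of the decoding region, went the other way. It ran from -3.68 to -2.78 in AI (median -3.23) and from -3.92 to -1.57 in IVF (median -2.77), a difference of 0.59 ± 0.20 (adjusted p = 0.0163). The IVF values enclosed the whole AI range. Its call was lost with quantile normalization (0.34, adjusted p = 0.181), on the arrays where Cy3 labelled the embryo (0.30, adjusted p = 0.179), with values as given (adjusted p = 0.0758) and with the dye-bias cluster as a block (adjusted p = 0.0548), out of 11 alternatives with adjusted p-values up to 0.181.

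With the dye-bias cluster as a block 8 of the 27 lower calls remained, where 4.75% of all features were called lower. They were RPL35A (-1.32), RPL30 (-1.20), RPS3 (-0.94), RPLP1 (-0.92), RPL23 (-0.76), RPS15A (-0.72), RPS25 (-0.63) and RPL7L1 (-0.60), while 19 lost theirs. Among these, RPL22 was -0.71 (adjusted p = 0.178), RPL37 -0.59 (adjusted p = 0.0794) and RPS3A -0.92 (adjusted p = 0.0788), the last no smaller than without the block, with an SE of 0.33. RPL10, RPL27 and RPL34 shrank by over 1.5 times, to -0.32, -0.13 and -0.25 (adjusted p = 0.597, 0.681 and 0.372). The median of the 46 genes was -0.32 with the block. It was -0.39 between the 2 IVF and 13 AI embryos of the first cluster. Between the 11 IVF embryos and 1 AI embryo of the second it was -0.28. With values as given 17 genes stayed lower, where 10.8% of all features were called lower.

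**Figure D1:**
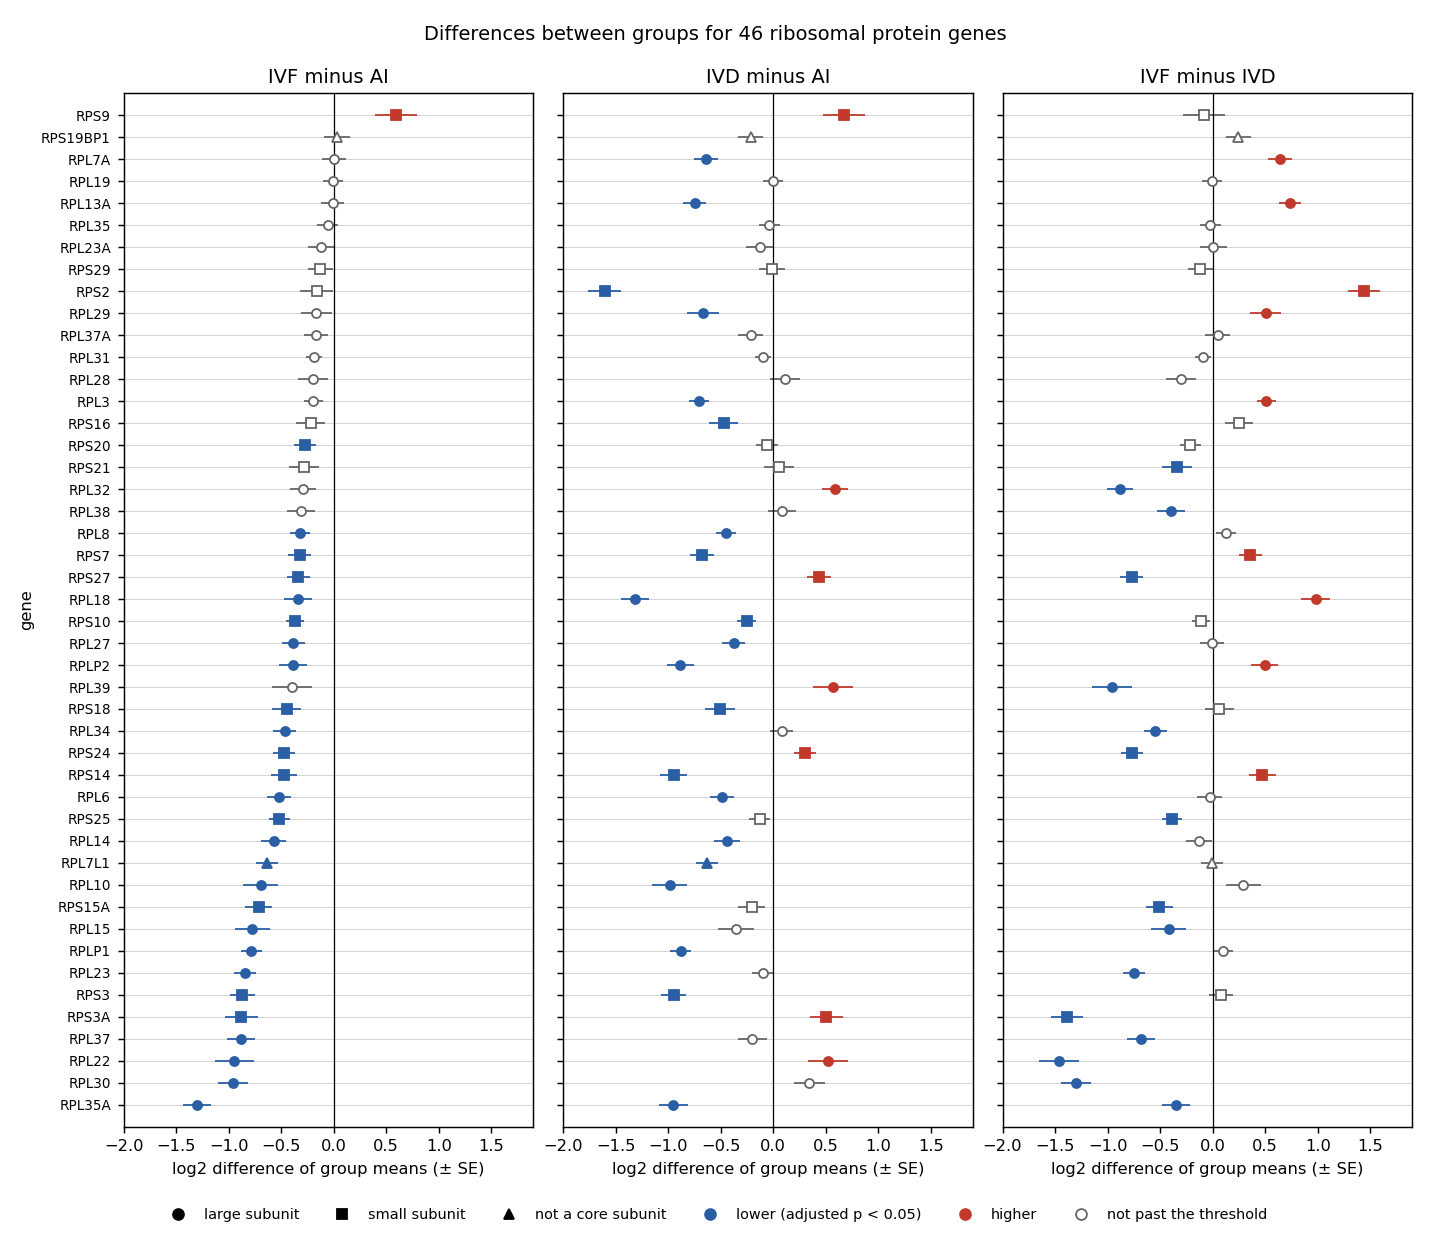
Differences between group means (log2 scale, ± SE) of the 46 tested genes in the 3 comparisons, ordered by IVF minus AI; circles are large subunit genes, squares small subunit genes, triangles the 2 genes that are not core subunits, and filled symbols passed an adjusted p of 0.05. In IVF minus AI 43 of 46 genes lie below 0, 27 of them called lower, and RPS9 alone is called higher, whereas the IVD comparisons have calls on both sides.

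IVD embryos were set against the same AI embryos. In this comparison 21 genes fell and 7 rose. RPS2, RPL18, RPL10, RPL35A, RPS3, RPS14, RPLP2 and RPLP1 were the lowest, and RPS9, RPL32, RPL39, RPL22, RPS3A, RPS27 and RPS24 were higher. The shares were 45.7% lower and 15.2% higher, with a background of 21% lower and 25.5% higher (46.5% in either direction). The median difference was -0.21, from -1.60 to 0.67, against 0.058 over all features. AI embryos serve both comparisons, so the values stand side by side and neither repeats the other.

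RPS2, which lines the mRNA entry channel, had the largest range of group means among the 46 genes. It ran from -1.35 to -0.48 in AI (median -0.69), from -2.95 to -1.72 in IVD (median -2.44) and from -1.60 to 0.29 in IVF (median -1.05). Every IVD embryo lay below every AI embryo. The difference IVD minus AI was -1.60 ± 0.15, or 3.04-fold lower in IVD (adjusted p = 3.96e-11), while IVF minus AI was -0.16 ± 0.15 (adjusted p = 0.421).

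RPL18 of the large subunit was separated in the same manner. It ran from -0.94 to 0.19 in AI (median -0.31) and from -2.20 to -1.07 in IVD (median -1.61), a difference of -1.32 ± 0.14 (adjusted p = 2.05e-10). In IVF it ran from -1.21 to 0.34 (median -0.71) and was lower than AI by only 0.34 ± 0.13 (adjusted p = 0.0415).

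RPS3 ran from -0.27 to 0.65 in IVD (median 0.26), and all 14 embryos lay below the AI range given above (-0.95 ± 0.12, adjusted p = 1.52e-08). RPLP1 ran from -0.85 to -0.28 in IVD (median -0.50), again wholly below AI (-0.88 ± 0.10, adjusted p = 1.09e-09). RPS14, whose loss underlies a deletion form of myelodysplastic syndrome, ran from -0.67 to 0.42 in AI (median -0.31) and from -1.60 to -0.87 in IVD (median -1.20), a difference of -0.95 ± 0.13 (adjusted p = 8.52e-08). These 3 genes with RPS2 and RPL18 make 5 of 46 that were lower in IVD without overlap, beside a background of 1.74%.

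RPL35A fell by 0.95 ± 0.14 in IVD against AI (adjusted p = 2.30e-07), with 13 of 14 embryos below the AI range. RPL10, which joins the large subunit last, ran from -0.45 to 1.17 in AI (median 0.53) and from -1.18 to 0.11 in IVD (median -0.42), a difference of -0.99 ± 0.16 (adjusted p = 4.82e-06). Its groups overlapped only through AI 15 (-0.45) and AI 17 (-0.38), and every other AI embryo lay above the highest IVD embryo. Of 14 IVD embryos 6 lay below the AI range. RPLP2 ran from -0.63 to 0.60 in AI (median 0.078) and from -1.48 to -0.56 in IVD (median -0.76), or -0.88 ± 0.13 (adjusted p = 7.05e-07).

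The genes that rose in IVD did so by less. RPL32 of the large subunit ran from -1.42 to -0.41 in AI (median -0.87) and from -0.75 to 0.11 in IVD (median -0.25), a difference of 0.59 ± 0.12 (adjusted p = 1.71e-04), with 8 of 14 IVD embryos above every AI embryo. RPL39, a short protein lining the exit tunnel, ran from -2.09 to -0.64 in AI (median -1.72) and from -1.97 to 0.10 in IVD (median -1.14), or 0.57 ± 0.19 (adjusted p = 0.0144). RPL22 ran from -0.35 to 1.03 in IVD (median 0.46) and was higher than AI by 0.52 ± 0.19 (adjusted p = 0.024).

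On the small subunit, RPS3A ran from 0.11 to 1.10 in the 13 IVD embryos with a value (median 0.47), higher than AI by 0.50 ± 0.16 (adjusted p = 0.00882). RPS27, a zinc-finger protein, ran from -2.08 to -1.06 in AI (median -1.51) and from -1.53 to -0.55 in IVD (median -1.08), or 0.44 ± 0.11 (adjusted p = 0.00171). RPS24, another Diamond-Blackfan gene, ran from -0.92 to -0.13 in AI (median -0.62) and from -0.72 to 0.15 in IVD (median -0.25), or 0.30 ± 0.11 (adjusted p = 0.0183). RPS9 ran from -3.52 to -1.24 in IVD (median -2.71) and was higher than AI by 0.67 ± 0.20 (adjusted p = 0.00581). All 7 of the higher genes overlapped with AI, where only 1.1% of all features were higher in IVD without overlap. For RPS27 7 of 14 IVD embryos lay above the AI range.

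The count of lower genes in IVD rests in part on the centring. Without centring, 11 of the 46 genes were lower and 8 higher in IVD than in AI. Beside them, 6.59% of all features were called lower and 38.3% higher. The 46 genes then had a median of 0.045, still below the 0.32 over all features. With centring these medians were -0.21 and 0.058. Of all called features 85.3% were higher without centring, against 54.9% with it. The values of RPS24, RPS27 and RPS3A grew to 0.55, 0.69 and 0.80 without centring. Calls of higher genes were also lost for RPL22 (adjusted p = 0.0714) and RPS24 (0.133) with the embryo in Cy3 alone, for RPL39 (0.104) and RPS9 (0.0644) without IVD embryos 12_1 to 12_4, which share a first number, and for RPS9 with quantile normalization (0.33, adjusted p = 0.187).

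**Figure D2:**
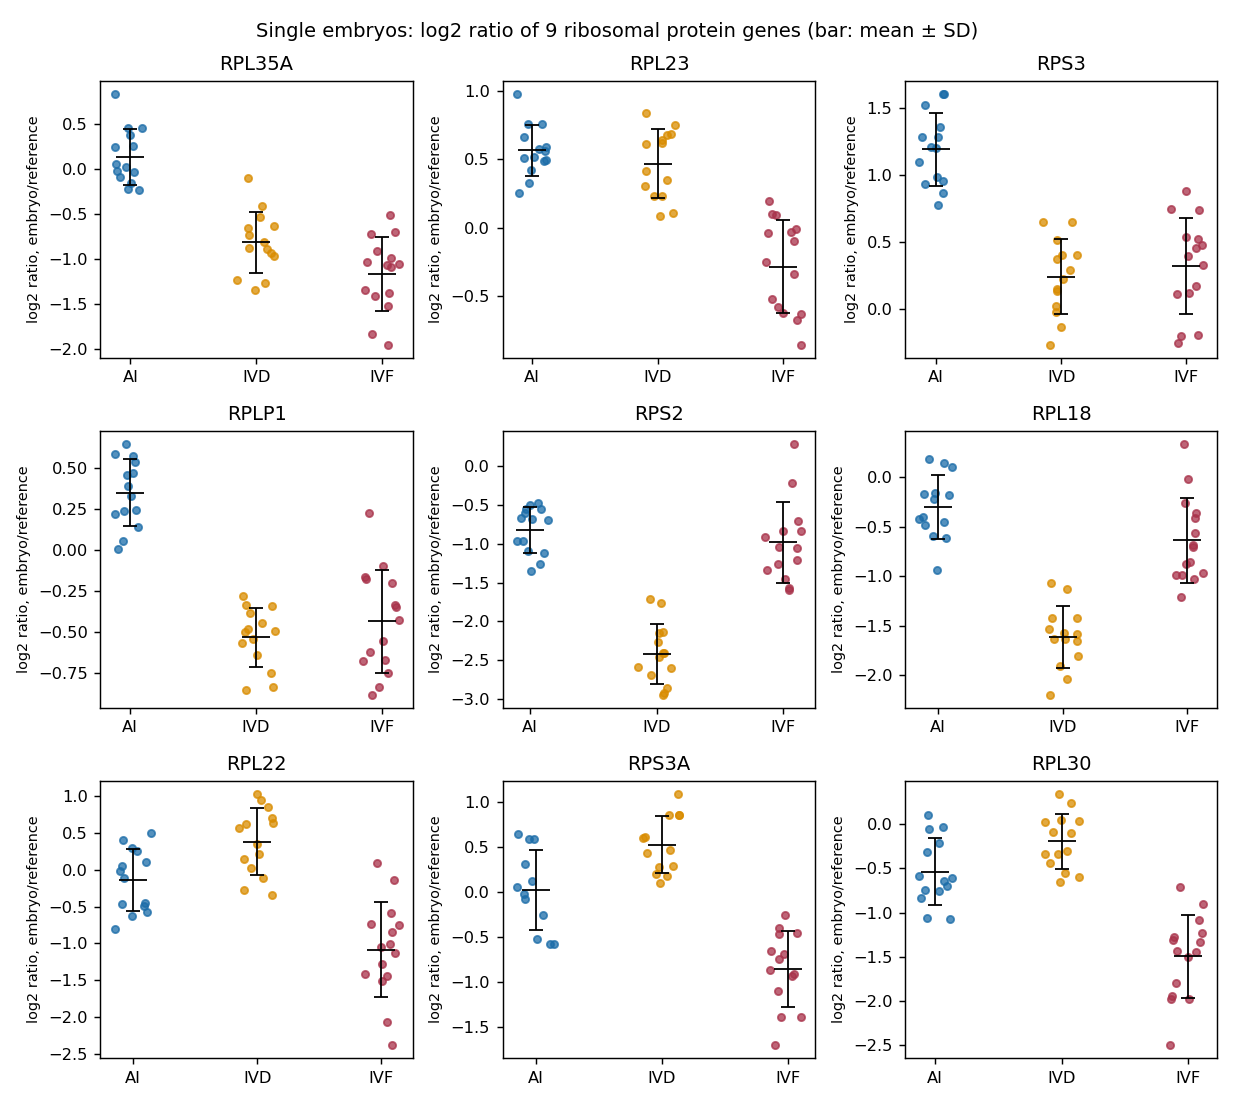
Log2 ratio of embryo over reference (y axis) for 9 genes in each AI, IVD and IVF embryo (points), with the group mean ± SD as a bar. RPL35A and RPL23 of IVF lie wholly below AI, RPS2 and RPL18 of IVD lie wholly below AI, and RPS3A and RPL30 of IVF lie wholly below IVD.

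IVF embryos were also compared with IVD embryos. Here 16 genes were lower and 9 higher in IVF, 34.8% and 19.6% of the 46, beside a background of 25.2% lower and 22.3% higher (47.6% in either direction). Calls thus came in both directions, and the share of higher genes was near that of all features. The median difference was -0.055, against -0.0088 over all features, and the range ran from -1.47 to 1.44.

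The lower genes were headed by RPL22 at -1.47 ± 0.19 (adjusted p = 2.28e-08), with 13 of 15 IVF embryos below the lowest IVD embryo. RPS3A was lower by -1.38 ± 0.15 (adjusted p = 1.44e-09) and RPL30, which ran from -0.66 to 0.34 in IVD (median -0.20), by -1.30 ± 0.15 (adjusted p = 1.00e-09). In both genes every IVF embryo lay below every IVD embryo, which makes 2 of 46 beside a background of 1.78%. RPL39 followed at -0.96 ± 0.19, RPL32 at -0.88 ± 0.12, RPS27 and RPS24 at -0.77 each, and RPL23 at -0.75 ± 0.10.

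RPS2 was higher in IVF than in IVD by 1.44 ± 0.15 (adjusted p = 4.27e-10) with no overlap, 1 of 46 beside a background of 1.5%. RPL18 was higher by 0.98 ± 0.13 (adjusted p = 7.90e-08), with 14 of 15 IVF embryos above the highest IVD embryo. RPL13A, a component of the interferon-driven translation control complex, ran from -0.88 to -0.074 in AI (median -0.46), from -1.51 to -0.62 in IVD (median -1.23) and from -1.19 to 0.33 in IVF (median -0.46). It was higher in IVF than in IVD by 0.74 ± 0.11 (adjusted p = 2.10e-07) and lower in IVD than in AI by 0.75 ± 0.11 (adjusted p = 2.94e-07).

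The remaining large subunit genes of this kind were RPL7A, RPL3 and RPL29. RPL7A ran from -1.19 to -0.14 in AI (median -0.70), from -1.91 to -0.56 in IVD (median -1.38) and from -1.11 to -0.16 in IVF (median -0.69), with 0.64 ± 0.11 for IVF minus IVD (adjusted p = 8.50e-06). RPL3, which is needed to form the peptidyl transferase centre, ran from -0.41 to 0.27 in AI (median 0.09), from -0.96 to -0.20 in IVD (median -0.74) and from -0.75 to 0.22 in IVF (median -0.13), with 0.51 ± 0.09 for IVF minus IVD (adjusted p = 9.56e-06). RPL29 ran from -1.19 to 0.17 in AI (median -0.61), from -1.53 to -0.68 in IVD (median -1.26) and from -2.40 to -0.11 in IVF (median -0.58), with 0.50 ± 0.15 for IVF minus IVD (adjusted p = 0.00516). RPL7A, RPL3 and RPL29 had differences of 0.0040, -0.20 and -0.16 between IVF and AI, none past the threshold.

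RPLP2, RPS14 and RPS7 were higher in IVF than in IVD by 0.49 ± 0.13, 0.47 ± 0.13 and 0.36 ± 0.11 (adjusted p = 0.00183, 0.00195 and 0.00719). RPS7, another protein that binds MDM2, ran from -0.95 to -0.20 in AI (median -0.65), from -2.13 to -0.67 in IVD (median -1.31) and from -1.34 to -0.52 in IVF (median -0.97). RPS7 thus had its lowest values in IVD, and its IVF values overlapped with both other groups.

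All 14 IVD embryos shared the first dye-bias cluster with only 2 IVF embryos, IVF 5 and IVF 19. With the cluster as a block, IVF minus IVD is thus the difference between these 2 and IVD. The other IVF embryos add only to the estimate of spread. RPS3A had no value in IVF 19, so its difference rests on IVF 5 alone. With this block 4 lower genes remained called (RPL30, RPL32, RPS24 and RPS27) and 2 higher (RPS2 and RPL13A). Over all features 7.44% were called lower and 6.04% higher, so both shares of the 46 were near the background. RPL18 (0.61), RPL22 (-0.96), RPS3A (-0.78) and RPLP2 (0.29) moved by over 1.5 times and lost their calls. RPL23 (-0.50), RPS14 (0.32) and RPL3 (0.40) moved by less and lost theirs, as did RPL39 (-0.98), RPL7A (0.65) and RPL29 (0.57), whose differences were as large as without the block while their SE grew to 0.37, 0.24 and 0.27. Of all calls in this comparison 47% were higher, against 17.5% with values as given, 36.4% with Cy3-labelled and 57.4% with Cy5-labelled embryos alone. With values as given 20 genes of the 46 were lower and 3 higher, beside 35% and 7.41% of all features. Cy3-labelled embryos alone gave 13 lower and 13 higher, beside 32.2% and 18.4%. Cy5-labelled embryos alone gave 21 and 9, beside 20.8% and 27.9%. With values as given RPL7A (0.39), RPL3 (0.26), RPL29 (0.26), RPLP2 (0.25) and RPS14 (0.23) were no longer called and RPL13A was 0.49, while single-dye arrays gave RPL13A 1.15 and 0.33, RPL18 0.64, RPL23 -0.44 and RPL7A 0.37, all still called, and RPS14 0.42, which was not (adjusted p = 0.0667).

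The 2 subunits were set side by side as a description, without a test, beside the shares of all features given above for each comparison. In IVF minus AI, 15 of 28 large subunit genes were lower and 0 higher, with a median of -0.36, and 11 of 16 small subunit genes were lower and 1 higher, with a median of -0.35. In IVD minus AI, 13 large subunit genes were lower and 3 higher (median -0.28), and 7 small subunit genes were lower and 4 higher (median -0.17). In IVF minus IVD, 10 large subunit genes were lower and 6 higher (median -0.026), and 6 small subunit genes were lower and 3 higher (median -0.12). The higher shares here, 21.4% and 18.8%, were near the 22.3% of all features. Genes of 1 subunit spread far more widely than the medians lay apart, in IVF minus IVD from -1.47 to 0.98 on the large and from -1.38 to 1.44 on the small subunit.

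Each embryo's own median over large subunit genes followed that over small subunit genes. In AI the large subunit median ran from -0.71 to -0.031 and the small subunit median from -0.95 to -0.24. In IVD they ran from -1.14 to -0.42 and from -1.17 to -0.51, and in IVF from -1.20 to -0.49 and from -1.37 to -0.66. Large minus small averaged 0.13 ± 0.15 (SD, n = 14) over AI embryos, 0.072 ± 0.12 (SD, n = 14) over IVD embryos and 0.14 ± 0.12 (SD, n = 15) over IVF embryos. In each group 3 embryos had the large subunit median below the small, and the 3 groups overlapped widely in this measure.

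Over all 46 genes the embryo medians averaged -0.44 ± 0.20 for AI (SD, n = 14), -0.74 ± 0.20 for IVD (SD, n = 14) and -0.83 ± 0.16 for IVF (SD, n = 15). The lowest AI embryo stood above 12 of 15 IVF and 8 of 14 IVD embryos. IVF and IVD overlapped nearly throughout, with 1 IVF embryo below the lowest IVD embryo.

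**Figure D3:**
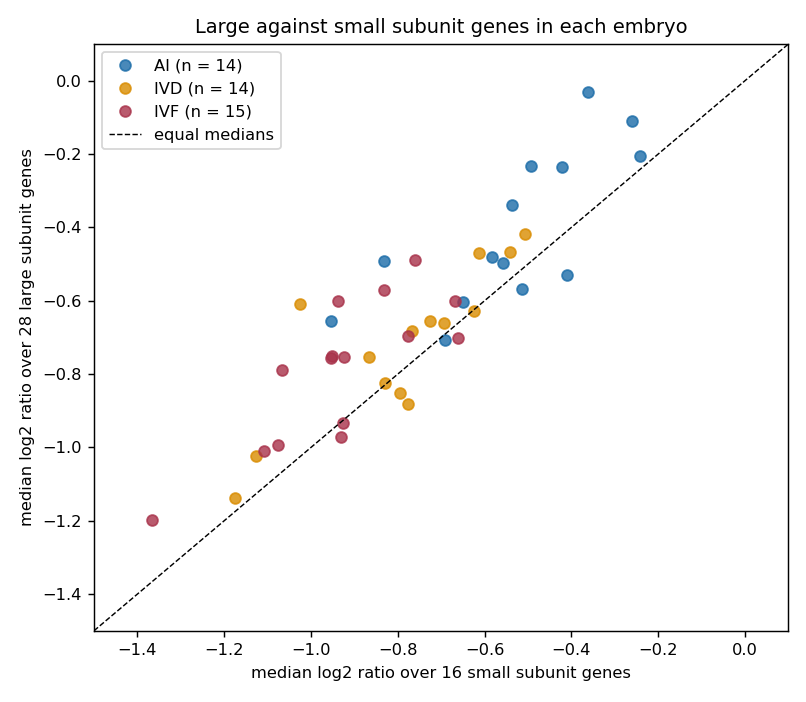
Median log2 ratio over 28 large subunit genes (y axis) against that over 16 small subunit genes (x axis), 1 point per embryo, coloured by group, with a dashed line where both are equal. AI embryos reach the highest values on both axes (up to -0.031 and -0.24) and all 3 groups lie along the line.

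The genes also varied among themselves from embryo to embryo. In AI the SD over embryos was largest for RPL39 (0.55), RPL15 (0.49), RPL10 (0.47) and RPS3A (0.45). It was smallest for RPL31 (0.16), RPL35 (0.16) and RPL19 (0.19). RPL15 is a mean of 2 clones, and the rows of 1 clone had values in only 11 of 14 AI embryos. Its values thus do not rest on the same rows in every embryo. In IVD the SD was largest for RPS9 (0.70) and RPL39 (0.62), and in IVF for RPL22 (0.65) and RPS9 (0.58). RPL31 had the smallest SD in all 3 groups (0.16, 0.16 and 0.21). The median SD of the 46 genes was 0.29 in AI, 0.30 in IVD and 0.36 in IVF, beside 0.40, 0.33 and 0.42 over all features. RPL19, with 1 clone, had nearly the same mean in the 3 groups (-0.95, -0.95 and -0.96). RPL35 did too (-2.18, -2.22 and -2.24), but as the mean of 2 clones that went opposite ways.

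Within a group, embryos that were high for one ribosomal protein transcript tended to be high for the others. For the 37 genes measured in every embryo, the median Pearson r over gene pairs was 0.502 in AI (14 embryos), 0.48 in IVD (14 embryos) and 0.234 in IVF (15 embryos), and 95.9%, 86.8% and 74.3% of the pairs had r above 0. The same medians over the 3711 features measured in every embryo were 0.00208, 0.000907 and -0.00128. For 27 mitochondrial ribosomal protein genes they were 0.097, 0.107 and 0.0377. These correlations are descriptive. All values of an embryo share its amplification, labelling and arrays, and the difference between groups was not tested.

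Some pairs were tighter than others. RPL27 and RPS21 had r = 0.908 in AI, RPL37A and RPS27 r = 0.951 in IVD, and RPS27 and RPS29 r = 0.907 in IVF. RPS9 stood apart in IVD, with a mean r of -0.297 with the other genes and the lowest pair with RPS14 (r = -0.71). RPL22 also followed the others little, with mean r of 0.21 in AI, 0.0473 in IVD and 0.0061 in IVF. RPL35A had the highest mean r in AI (0.623), RPL37 in IVD (0.606) and RPS20 in IVF (0.358).

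**Figure D4:**
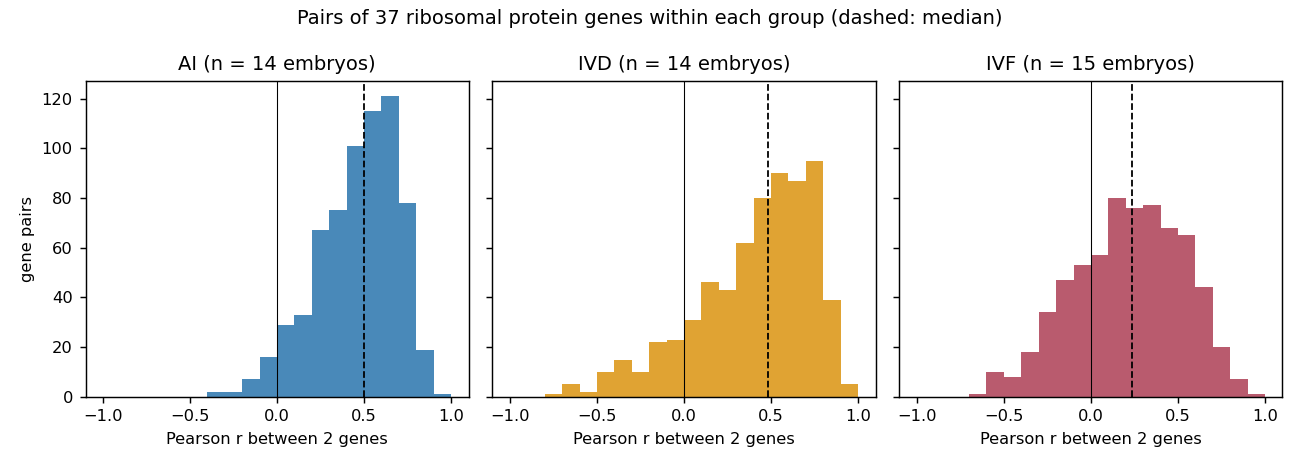
Number of gene pairs (y axis) by Pearson r (x axis, bins of width 0.1) among 37 ribosomal protein genes, across the embryos of AI, IVD and IVF, with the median as a dashed line. The bulk of pairs lies above 0 in each group, with medians of 0.502, 0.48 and 0.234.

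Each clone was spotted as a pair of rows, which gives the error of the spotting itself. In 55 clones with both rows kept, the 2 rows gave group differences that lay apart by 0.031 at the median for IVF minus AI, with the widest gap at 0.16 in RPS20. For IVD minus AI the median gap was 0.036 (widest 0.20, RPL28) and for IVF minus IVD 0.029 (widest 0.26, RPS20). Among genes with 2 tested clones, the clones gave like values for RPS3, RPL6, RPL34, RPL27 and RPL3, and less so for RPL8, RPS24, RPL15 and RPL35. The RPS3 clones gave -0.82 and -0.91 for IVF minus AI, the RPL6 clones -0.50 and -0.51, and the RPL34 clones -0.48 and -0.45. The RPL27 clones gave -0.42 and -0.36 and the RPL3 clones -0.18 and -0.22. The RPL8 clones lay further apart, at -0.22 and -0.41.

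The clones of RPL15 and RPL35 disagreed. The RPL15 clones gave 0.11 and -1.55 for IVF minus AI and 0.15 and -0.95 for IVD minus AI, so the called value of RPL15 (-0.78 ± 0.17, adjusted p = 3.89e-04) is a mean of 2 clones that go apart in sign. The RPL35 clones gave -0.32 and 0.16 for IVF minus AI, 0.0060 and -0.17 for IVD minus AI and -0.32 and 0.33 for IVF minus IVD, and RPL35 passed in no comparison. RPS24 clones had the same sign but different sizes, -0.69 and -0.23 for IVF minus AI and 0.45 and 0.11 for IVD minus AI. cDNA clones can also pick up RNA of close relatives, and ribosomal protein genes have many processed pseudogenes, so values of such genes are uncertain in that respect.

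The row most like RPS2 over embryos bears a pseudogene name. Among 2391 named genes outside the 46, LOC783349, a pseudogene in the RefSeq table, had r = 0.973 with RPS2 over 42 embryos, with group means of -0.67 in AI, -2.34 in IVD and -0.74 in IVF. The next were TMEM109 (r = 0.956) and VIM, an intermediate filament gene (r = 0.897). Their IVD means were also the lowest of the 3 groups (-1.79 for TMEM109 and -5.64 for VIM, against -0.58 and -4.57 in AI).

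Other genes of ribosome production and translation were read from lists. Over all features 17.7% were lower and 19.9% higher in IVF minus AI, 21% and 25.5% in IVD minus AI, and 25.2% and 22.3% in IVF minus IVD. Of 35 tested ribosome assembly factors, 11 were lower and 3 higher in IVF than in AI (median -0.20), 11 lower and 3 higher in IVD than in AI (median -0.099), and 10 lower and 8 higher in IVF than in IVD (median -0.039). The lower shares were 31.4%, 31.4% and 28.6% and the higher shares 8.57%, 8.57% and 22.9%, the last pair close to the background. GAR1, of the particles that pseudouridylate ribosomal RNA, differed by -1.63 ± 0.22 between IVF and AI (adjusted p = 1.80e-07) and by -1.86 ± 0.22 between IVF and IVD (adjusted p = 2.51e-09). NOP56, a core protein of the methylation guide particles, and the nucleolar GTPase GNL3 fell in IVF by 0.67 and 0.63, and TSR1 rose by 0.78. In IVD, NOL9, a kinase of ribosomal RNA processing, and the pseudouridine synthase DKC1 fell by 1.13 and 0.89, and UTP11 of the small subunit processome rose by 0.94 ± 0.10 (adjusted p = 1.15e-09).

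Of 10 genes of RNA polymerase I and its factors, 2 were lower and 1 higher in IVF than in AI, 3 lower and 2 higher in IVD than in AI, and 3 lower and 2 higher in IVF than in IVD. With 10 genes, these shares (20% and 10%, 30% and 20%, 30% and 20%) lay within 1 gene of the background. POLR1C differed by -0.72 in IVF and -0.96 in IVD and POLR1D by 0.43 and 0.81, all past the threshold. Of 20 other mRNAs of the TOP class, 10 were lower and 1 higher in IVF than in AI (median -0.29), 6 were lower and 5 higher in IVD than in AI (median -0.097), and 9 were lower and 4 higher in IVF than in IVD (median -0.14). Their lower shares were 50%, 30% and 45%, and their higher shares 5%, 25% and 20%. The initiation factor subunit EIF3H fell in IVF by 0.74 ± 0.09 (adjusted p = 4.57e-08), while EIF3A rose by 0.68 ± 0.15 in IVF and by 1.20 ± 0.16 in IVD.

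Of 11 ribosome-associated factors, 2 were lower and 1 higher in IVF than in AI, 4 lower and 3 higher in IVD than in AI, and 4 lower and 4 higher in IVF than in IVD. The lower shares of 18.2%, 36.4% and 36.4% and the higher shares of 9.09%, 27.3% and 36.4% rest on few genes. SERBP1, which binds ribosomes at rest, was lower in IVF and IVD than in AI by 0.99 ± 0.15 and 0.73 ± 0.15, and NACA, of the nascent chain complex, was lower in IVF by 0.58 ± 0.11. RACK1, a scaffold on the small subunit, was lower in IVD by 0.85 ± 0.10 (adjusted p = 6.32e-09).

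Mitochondrial ribosomal protein genes, which serve a separate ribosome, were the nearest family for comparison. Of 36 tested, 17 were lower and 1 higher in IVF than in AI (median -0.29), 17 lower and 2 higher in IVD than in AI (median -0.28), and 9 lower and 6 higher in IVF than in IVD (median -0.053). The lower shares were 47.2%, 47.2% and 25% and the higher shares 2.78%, 5.56% and 16.7%, so that in IVF minus IVD the lower share equalled the background to within 1 gene. Their embryo medians averaged 0.41 ± 0.10 for AI (SD, n = 14), 0.13 ± 0.11 for IVD (SD, n = 14) and 0.11 ± 0.11 for IVF (SD, n = 15). These averages lay on the other side of the reference from those of the cytosolic genes. Of the 36 group means, 28 lay above 0 in AI, 20 in IVD and 18 in IVF. The difference between the 2 families was not tested.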

How the data were processed

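The authors deposited 1 table of log2 ratios, 16416 rows by 86 arrays. Of image analysis, background correction, normalization and direction, the sources used here give nothing. Cells without a value made up 20.1%, including 16 at a ceiling set to missing. From each array the median of the 5558 rows with a value on all arrays was subtracted, the sign was turned where Cy3 labelled the embryo, and the 2 arrays of an embryo were averaged. Array medians before centring ran from -2.22 to 1.06. Rows with at least 7 embryos per group were kept (10757), and rows of 1 gene symbol were averaged, giving 6278 features. Gene names come from the platform annotation of the value table; all 48 members matched RefSeq (ARS-UCD2.0) by gene identifier. A further 12 rows that carry a ribosomal symbol beside another were left out. Group means were fitted with limma 3.58.1 in R 4.3.3, tested on simulated data. Per array, 10137 to 15618 rows were measured, and the number of arrays limits the precision. Alternatives were as-given or all-row centring, quantile normalization, single dyes, other row filters, the best-measured row, blocks, left-out embryos and 2-group fits. The members and gene lists were chosen with earlier results of these data known. Full values were given for, per comparison, the 8 lowest and 8 highest members past the threshold. Of the other lists, genes were named from the 4 with the largest differences past the threshold. Clones that disagree, the SD extremes, gene pairs and genes just outside the threshold were named after their values were seen. Figures used matplotlib 3.10.9.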

Additional observations from a re-analysis of the deposited data

How the results depend on the processing

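Over 12 alternatives, 40 named member and comparison pairs gave 463 values. Of these 435 kept their direction and call, 28 kept their direction and lost the call, and 0 turned in sign. The pairs were chosen in these data for the largest differences past the threshold, so a kept call was likely. Over all called members, the dye-bias cluster as a block kept 8 of 27 lower calls in IVF minus AI. It kept 21 of 21 in IVD minus AI, but there the block only set aside AI 17. The first cluster held the other 13 AI and all 14 IVD embryos, so this block could hardly change those calls. In IVF minus IVD it kept 4 of 16 lower and 2 of 9 higher calls. With values as given, 17 genes were lower and 0 higher in IVF than in AI, beside 10.8% and 10.3% of all features. In IVD minus AI 11 were lower and 8 higher, beside 6.59% and 38.3%. In IVF minus IVD 3 were higher, beside 7.41%. All features called for IVF against AI were then 1325, against 2365 with centring. The median over the 46 genes then turned to 0.045 for IVD minus AI and moved to -0.30 for IVF minus IVD. Over all features these medians were 0.32 and -0.27. For large subunit genes the median was then -0.030 for IVD minus AI and -0.27 for IVF minus IVD, and for small subunit genes 0.087 and -0.36. With Cy3-labelled embryos alone the large subunit median for IVF minus IVD turned to 0.085. RPS9 was the single higher gene in IVF minus AI, and 0 were higher with quantile normalization, with the embryo in Cy3 alone and with the dye-bias cluster as a block. With that block 8 genes were lower in IVF than in AI and 498 features were called. In IVF against IVD 4 genes were lower, 2 higher and 846 features called, where the difference rests on 2 IVF and 14 IVD embryos. Over rows measured in every embryo 1571, 1770 and 1880 features were called for IVF minus AI, IVD minus AI and IVF minus IVD, out of 3533 tested, so fewer calls follow from fewer features. Among all called genes of the 46, 1 had the opposite sign, uncalled, with the best-measured row of each gene (IVF minus AI), 1 with values as given (IVD minus AI) and 1 with the embryo in Cy3 alone (IVF minus IVD). Apart from the construction of fewer features, the cause of these changes was not tested. The embryo number shared between groups did not pair the embryos (r from -0.187 to 0.213 over 21 same-numbered pairs). With the embryo number as a replicate block the same 27 genes were lower and the same 1 higher in IVF minus AI, the same 21 and 7 in IVD minus AI, and the same 16 and 9 in IVF minus IVD, with a median of -0.35 for IVF minus AI.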
